A study of Mus musculus with 26 samples.

Results

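The Ikaros family consists of 5 zinc finger transcription factor genes, Ikzf1 (Ikaros), Ikzf2 (Helios), Ikzf3 (Aiolos), Ikzf4 (Eos) and Ikzf5 (Pegasus). The 5 were chosen by the read counts of this same contrast, in which Helios stood out, and were found by mouse symbol among the 54146 gene identifiers of 6 RNA-seq libraries. The cells of interest were MA9+SETDB1, made by retroviral transduction of lineage-negative mouse bone marrow with the fusion oncogene MLL-AF9 (MA9) together with SETDB1, which methylates histone H3 on lysine 9. Their controls, MA9+EV, received MLL-AF9 and the empty puromycin-resistance vector. Both arms therefore carried MLL-AF9, were grown for 8 to 12 weeks, and were selected in puromycin for 3 to 6 weeks in medium with IL-3 and SCF. Each arm had 3 libraries described as biological replicates. Separate transductions are not stated, so a p-value reflects only how much these libraries vary, and that may be partly technical.

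Ikaros family proteins bind DNA through zinc fingers near the amino end and pair with themselves or each other through fingers at the carboxyl end. They recruit chromatin complexes, chiefly the NuRD deacetylase and remodelling complex, and also the CtBP and SIN3 corepressors. Ikaros is known as a regulator of lymphoid development that is also active in stem and myeloid cells, Aiolos as a B cell factor, and Helios and Eos as factors of regulatory T cells. Helios is also present in blood stem cells and has been reported to sustain leukaemic stem cells in MLL-AF9 leukaemia, where it acts on HOXA9 and C/EBP programmes.

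Start regions from RefSeq (GRCm38.p6) were matched for Ikzf1, with 2 entries, and Ikzf5, with 1. These are the members with an entry, and they are shown because the gene count of Ikzf1 pools transcripts from different starts. The 2 entries of Ikzf1 differ in sequence and need not be all of its starts. The sequences below give the 100 bases just before each start, 5′ to 3′ on the gene's strand, with CG dinucleotides in capitals. They lie at chr11:11685825-11685924 (plus strand), chr11:11690077-11690176 (plus strand) and chr7:131410479-131410578 (minus strand). The starts of these entries lie inside the gene spans given below, which begin at 11684962 for Ikzf1 and reach 131410518 for Ikzf5. Both Ikzf1 stretches and part of the Ikzf5 stretch are therefore within those spans.
Ikzf1 start 1: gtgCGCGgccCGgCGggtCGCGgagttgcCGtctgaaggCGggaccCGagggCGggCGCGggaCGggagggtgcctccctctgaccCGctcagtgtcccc
Ikzf1 start 2: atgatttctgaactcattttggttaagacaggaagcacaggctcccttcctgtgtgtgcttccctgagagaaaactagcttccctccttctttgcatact
Ikzf5 start 1: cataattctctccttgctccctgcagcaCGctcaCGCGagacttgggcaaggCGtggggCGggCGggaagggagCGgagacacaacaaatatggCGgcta

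The full 300-base windows, 250 bases before and 50 after the start, differed widely in CG content. The first Ikzf1 window held 52 CG dinucleotides, more than 99.4% of the 32851 RefSeq windows, whose median was 7. The second Ikzf1 window held 2, and the Ikzf5 window held 27. The letters GGGAA, the core of the sequence that Ikaros binds, were searched on both strands and stand in 62.7% of all windows. They occurred 0, 2 and 1 times in the Ikzf1 start 1, Ikzf1 start 2 and Ikzf5 windows. A motif of GATA factors, AGATAA, stands in 11.2% of windows, and one of ETS factors, CCGGAAG, in 8.86%. Neither was found in the 3 windows on either strand.

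The 6 libraries held between 18070482 and 22561757 gene counts. Setdb1 itself was at 474.1, 604.3 and 606.4 CPM (counts scaled to a library of 1000000, after TMM factors) in MA9+SETDB1 replicates 1, 2 and 3, against 104.5, 108.2 and 108.8 CPM in MA9+EV replicates 1, 2 and 3. In edgeR's quasi-likelihood test over 12986 genes, 53.5% passed at a Benjamini-Hochberg adjusted p under 0.05. Within both arms, replicate 1 stood apart from replicates 2 and 3. Over genes with at least 20 counts in a pair, the mean chi-square per gene was 3.14 between replicates 2 and 3 of MA9+SETDB1 and 93.9 between replicates 1 and 2. In MA9+EV the corresponding values were 4.29 and 88. Lineage markers separated the arms. The summed level of 6 mast cell and basophil markers was 9770 to 10100 CPM in MA9+SETDB1 and 48.1 to 84.5 CPM in MA9+EV. That of 5 erythroid markers was 769 to 995 CPM in MA9+SETDB1 and 0.742 to 1.51 CPM in MA9+EV, and that of 6 myeloid markers was 342 to 370 CPM in MA9+SETDB1 and 9810 to 11300 CPM in MA9+EV. The labels call the line an acute myeloid leukaemia. In MA9+SETDB1 the myeloid markers Mpo, Elane, Lyz2 and Ptprc were lower by edgeR's test, Csf1r was higher (20.2 ± 3.36 CPM in MA9+SETDB1 and 4.19 ± 0.851 CPM in MA9+EV), and Spi1 did not pass.

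The 5 members differed from one another in how they stood between the arms. Helios transcripts were abundant in MA9+SETDB1 and close to absent from MA9+EV, Eos transcripts were higher in MA9+SETDB1, Aiolos transcripts were low but detected mainly in MA9+SETDB1, and Ikaros and Pegasus were at similar levels. The family was picked with this contrast known, so its values are a description and no p-value is given for a member. For orientation, all 5 members passed the low-count filter, 3 were called higher and 0 lower. Among all tested genes 27.4% were called higher and 26.2% lower. The arms did not overlap in 3 of the 5 members, all 3 higher, while 64.6% of all tested genes had arms that did not overlap, 32.1% on the higher side. Nothing is read from these shares, since the same contrast chose the members. Ikzf2 and Ikzf3 passed that filter through the MA9+SETDB1 libraries alone. Among genes named below, Zpbp2, Tigit, Hes1, Notch3, Prss34, Fcer1a and Cpa3 did so too. So did Rab27b, Tpsg1, Tal1, Gata1, Cldn13, Fgf2, Cd7, Cma1, Tcrg-C1, Il1rl1, Il9r, Kel, Rhag and Hbb-bt. Ctbp2, Igll1 and Tcf7 passed it through the MA9+EV libraries alone. For such genes the direction was set by passing the filter, so their calls and p-values are a description. Nrarp, Gata2, Il7r and Grb7 did not reach the filter in every MA9+EV library and could not have passed without MA9+SETDB1. The reverse held for Foxo1, Kit and Meis1, so calls on these genes are not free of the filter either. In bulk RNA, fewer cells with a transcript and less transcript per cell cannot be told apart. Exon lengths were not used here, so levels are compared between libraries and not between members.

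Ikzf2 (ENSMUSG00000025997.13, GRCm38 chromosome 1, 69531207 to 69687351), which encodes Helios, had 3960, 4473 and 5071 counts in MA9+SETDB1 replicates 1, 2 and 3, and 2, 2 and 1 counts in MA9+EV replicates 1, 2 and 3. These were 221.3, 272 and 263.1 CPM in MA9+SETDB1, with 0.0825, 0.0829 and 0.0503 CPM in MA9+EV. All 3 MA9+SETDB1 libraries were high, MA9+EV was at or under 2 counts throughout, and the arms were far apart. The mean was 252.1 ± 27.1 CPM in MA9+SETDB1 and 0.0719 ± 0.0187 CPM in MA9+EV (SD, n = 3 each). Summed over the libraries, 13504 counts in MA9+SETDB1 stood against 5 in MA9+EV, a ratio of normalized counts of 3438 (exact 95% binomial interval 1473 to 10590, counting error only). The fitted log2 fold change was 11.63 (SE 0.21). The highest MA9+SETDB1 library exceeded the lowest by 1.23-fold, so replicate 1, which stood apart from the other libraries in many genes, was close to them for Ikzf2.

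Ikzf4 (ENSMUSG00000002578.17, GRCm38 chromosome 10, 128630839 to 128669671), which encodes Eos, had 22.1, 23.6 and 21.0 CPM in MA9+SETDB1 replicates 1, 2 and 3, with 3.34, 2.32 and 2.67 CPM in MA9+EV replicates 1, 2 and 3. The arms did not overlap, and the MA9+SETDB1 libraries lay within 1.13-fold of each other. Its mean was 22.2 ± 1.35 CPM in MA9+SETDB1 and 2.78 ± 0.519 CPM in MA9+EV (SD, n = 3 each), with a fitted log2 fold change of 3.00 (SE 0.20). Eos transcripts were thus present in MA9+EV at 53 to 81 counts per library. Across the settings tried, the log2 fold change lay between 2.77 and 3.18. The long non-coding RNA genes Gm26876 and Gm51824 overlap Ikzf4 in the annotation, and whether the counting used strand is not stated, so reads of overlapping genes may be shared or dropped.

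Ikzf3 (ENSMUSG00000018168.8, GRCm38 chromosome 11, 98464610 to 98546031), which encodes Aiolos, was uneven within MA9+SETDB1. Its counts were 210, 23 and 28 in MA9+SETDB1 replicates 1, 2 and 3, and 2, 1 and 0 in MA9+EV replicates 1, 2 and 3. In CPM these were 11.7, 1.40 and 1.45 in MA9+SETDB1, against 0.0825, 0.0414 and 0 in MA9+EV. Replicate 1 of MA9+SETDB1 was 8.23 times the mean of replicates 2 and 3, while both of these were still above every MA9+EV library. The ratio of normalized counts was 110.7 (exact 95% binomial interval 37.5 to 540.5) with all libraries and 32.5 (10.5 to 162.7) without MA9+SETDB1 replicate 1, counting error only. The fitted log2 fold change was 6.61 (SE 1.32), or 4.86 (SE 0.61) without that library.

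Ikzf1 (ENSMUSG00000018654.17, GRCm38 chromosome 11, 11684962 to 11772930), which encodes Ikaros, was at 344.9, 219.1 and 206.6 CPM in MA9+SETDB1 replicates 1, 2 and 3, with 212.2, 229.5 and 222.2 CPM in MA9+EV replicates 1, 2 and 3. The arms overlapped, and replicate 1 of MA9+SETDB1 was the only library outside a range of 206.6 to 229.5 CPM. Its mean was 256.9 ± 76.5 CPM in MA9+SETDB1 and 221.3 ± 8.65 CPM in MA9+EV (SD, n = 3 each). The log2 fold change of 0.22 (SE 0.20) was about as large as its error and turned to -0.04 (SE 0.08) without MA9+SETDB1 replicate 1. That library was more than 1.5-fold above both of its replicates in 12.3% of all tested genes and more than 1.5-fold below both in 13.1%. A long non-coding RNA gene, Gm11999, overlaps Ikzf1.

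Ikzf5 (ENSMUSG00000040167.16, GRCm38 chromosome 7, 131388649 to 131410518), which encodes Pegasus, the most divergent member, was at 27.9, 22.9 and 24.8 CPM in MA9+SETDB1 replicates 1, 2 and 3. In MA9+EV replicates 1, 2 and 3 it was at 28.0, 25.8 and 22.1 CPM. The arms overlapped over nearly their whole range, with means of 25.2 ± 2.53 CPM in MA9+SETDB1 and 25.3 ± 2.96 CPM in MA9+EV (SD, n = 3 each). The log2 fold change of -0.01 (SE 0.15) had no stable sign, since it was 0.002 with DESeq2's size factors and -0.23 without scaling factors.

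**Figure D1:**
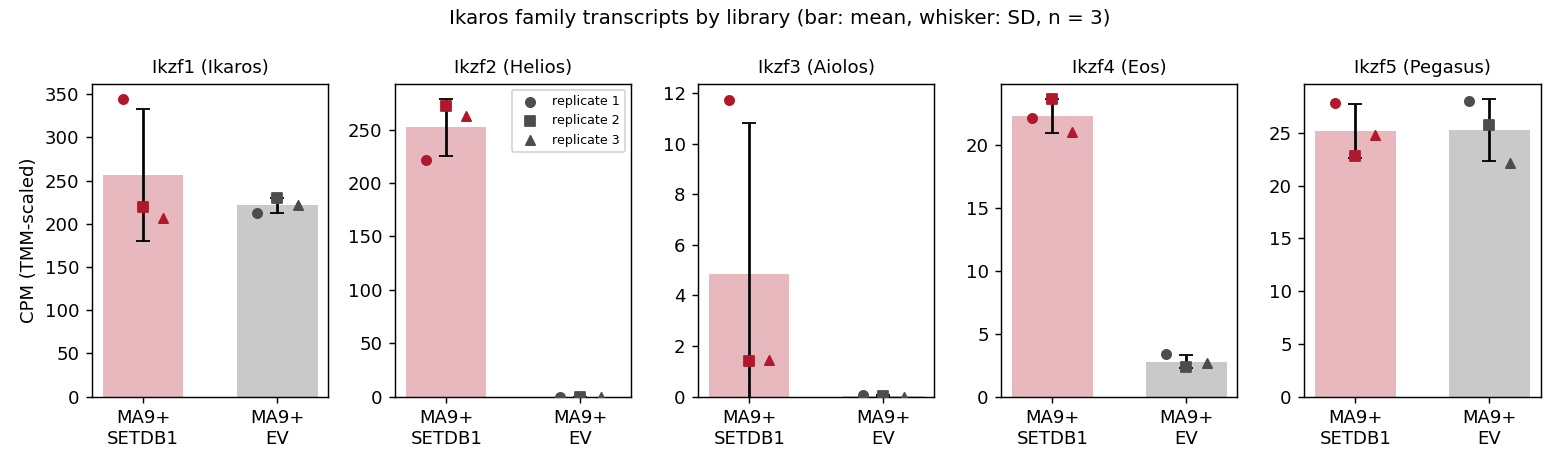
Level of each Ikaros family transcript in CPM (TMM-scaled) on linear axes, with one symbol per replicate, bars at the mean and whiskers at the SD of 3 libraries, MA9+SETDB1 left and MA9+EV right. Helios and Eos separate the arms with little spread, Aiolos is set by replicate 1 of MA9+SETDB1 at 11.7 CPM (its lower whisker is clipped at 0), and Ikaros and Pegasus overlap.

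The make-up of family reads within a library changed accordingly. For every 100 Ikzf1 reads there were 64.2, 124.1 and 127.3 Ikzf2 reads in MA9+SETDB1 replicates 1, 2 and 3, against 0.0389, 0.0361 and 0.0226 in MA9+EV replicates 1, 2 and 3. Ikzf4 reads per 100 Ikzf1 reads were 6.42, 10.8 and 10.1 in MA9+SETDB1 and 1.57, 1.01 and 1.20 in MA9+EV. These read ratios depend on transcript length and are comparable only between libraries. The lower ratios in MA9+SETDB1 replicate 1 go with its higher Ikzf1 level. For Ikzf2 the ratio also goes with its own lower level there, 221.3 CPM against 272 and 263.1 CPM in replicates 2 and 3.

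**Figure D2:**
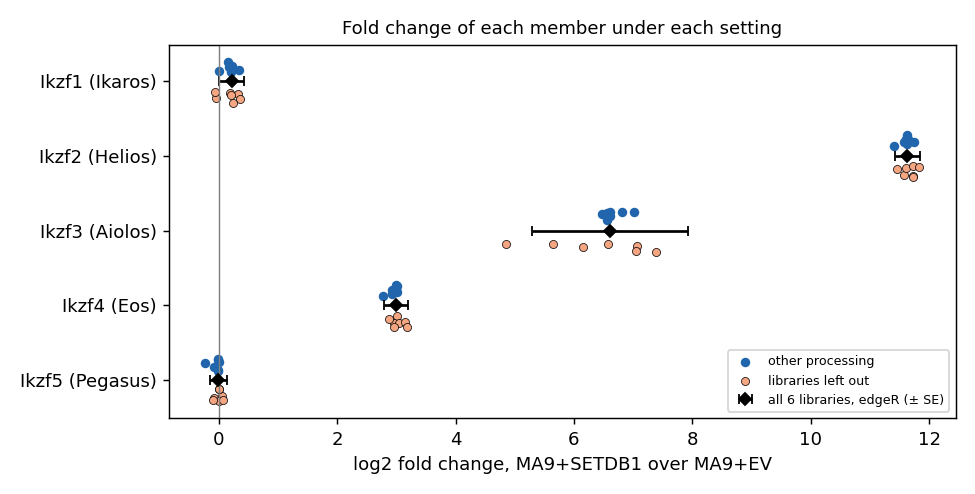
Fitted log2 fold change of each member, MA9+SETDB1 over MA9+EV, with all 6 libraries (diamond, whisker ± SE), with other processing (points above) and with libraries left out (points below). Ikzf2 stays between 11.41 and 11.83 and Ikzf4 between 2.77 and 3.18, Ikzf3 moves between 4.86 and 7.39, and Ikzf1 and Ikzf5 fall on both sides of 0.

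The 3 genes with the profile most like each member over the 6 libraries were taken by the smallest root mean square distance between mean-centred log2(CPM + 0.5) values. For Ikzf2 they were Rab27b, a GTPase gene of granule secretion (distance 0.0844), Tpsg1, a mast cell tryptase gene (0.121), and Tal1, a transcription factor gene of erythroid and mast cells (0.144). Rab27b was at 192.7, 264.2 and 257.4 CPM in MA9+SETDB1, with 2 counts in all in MA9+EV. For Ikzf3 they were Cldn13, Fgf2 and Cd7 (0.144, 0.174 and 0.226), each with 0 counts in MA9+EV and with replicate 1 of MA9+SETDB1 far above replicates 2 and 3. For Ikzf4 they were Runx1, a transcription factor gene of blood stem cells, Uba7 and Pip4k2a (0.0691, 0.101 and 0.11). Ikzf1 was most like Rbl2, which encodes a retinoblastoma family protein, Tmppe and the kinase gene Stk38 (0.0329, 0.0426 and 0.0476), and Ikzf5 most like Prkag1, Tubb4b and Tmem208 (0.0355, 0.0391 and 0.0429). With a pseudocount of 2 the same 3 genes were found for Ikzf3 and Ikzf5, 2 of 3 for Ikzf1 and Ikzf2, and 0 of 3 for Ikzf4. For Ikzf2, Gata1 took the place of Tpsg1. Where a gene is near 0 in MA9+EV, its distance rests largely on the pseudocount and its MA9+SETDB1 level. Likeness to Ikzf2 and Ikzf3 is therefore a description of level and not a measure of joint variation.

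Neighbouring genes were compared to see whether the difference at a member extended along the chromosome. The 2 nearest protein-coding genes on each side of every member, and Pstk, which overlaps Ikzf5, made 21 genes. Of these 13 were tested, 7 of them higher and 2 lower by edgeR's test, beside 27.4% and 26.2% among all tested genes. Around Ikzf2 none of the 4 neighbours reached the filter. Erbb4 and Vwc2l had 0 counts in all libraries, and Spag16 and Cps1 had 0 counts in MA9+SETDB1. The nearest of them, Spag16, lies 139521 bases away.

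All 4 neighbours of Ikzf3 rose. Ormdl3, which encodes a regulator of sphingolipid synthesis, was at 51.1 ± 4.36 CPM in MA9+SETDB1 and 21.6 ± 3.99 CPM in MA9+EV, a log2 difference of 1.24 with an SE of 0.17 (edgeR adjusted p = 0.000944). Zpbp2, 5066 bases away, was at 2.96, 1.03 and 0.778 CPM in MA9+SETDB1 replicates 1, 2 and 3, with 0, 0.0829 and 0.0503 CPM in MA9+EV (log2 fold change 4.99 with SE 0.90, edgeR adjusted p = 0.0033). As for Ikzf3, its highest library was MA9+SETDB1 replicate 1, and its log2 fold change was 4.20 without that library and 5.76 without MA9+EV replicate 2. Mien1 and Grb7 had log2 fold changes of 0.84 and 1.76 (edgeR adjusted p = 0.0103 and 0.0393). The call on Mien1 was lost when replicates 2 and 3 were summed, and that on Grb7 in 7 of the settings, including the fit without MA9+SETDB1 replicate 1 (edgeR adjusted p = 0.0911).

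Next to Ikzf4, Suox, the sulfite oxidase gene 216 bases away, rose to 28.4 ± 5.3 CPM in MA9+SETDB1, against 6.44 ± 0.826 CPM in MA9+EV (log2 fold change 2.14 with SE 0.20, edgeR adjusted p = 0.0002). Erbb3, a receptor kinase gene on the other side, fell, at 4.19 ± 2.37 CPM in MA9+SETDB1 and 25.6 ± 5 CPM in MA9+EV (edgeR adjusted p = 0.00355). Rps26 and Rab5b, 4333 and 7499 bases away, were at log2 fold changes of 0.08 and 0.15, negative without scaling factors, and did not pass (both picked after their values were seen). Beside Ikzf5, Acadsb, an acyl-CoA dehydrogenase gene 83 bases away, rose with a log2 fold change of 0.89 with SE 0.10 (edgeR adjusted p = 0.000429), whereas Ikzf5 itself was at -0.01. Hmx3, 131014 bases from Ikzf5, did not pass the filter and was not tested (picked after its values were seen). It had 4, 134 and 183 counts in MA9+SETDB1 replicates 1, 2 and 3, and 0, 1 and 0 in MA9+EV replicates 1, 2 and 3. Beside Ikzf1, the aromatic amino acid decarboxylase gene Ddc rose to 13.6 ± 7.05 CPM in MA9+SETDB1, against 0.783 ± 0.215 CPM in MA9+EV (edgeR adjusted p = 0.00043). Fignl1, which encodes an AAA ATPase of DNA repair, fell with a log2 fold change of -0.77 (edgeR adjusted p = 0.00394).

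**Figure D3:**
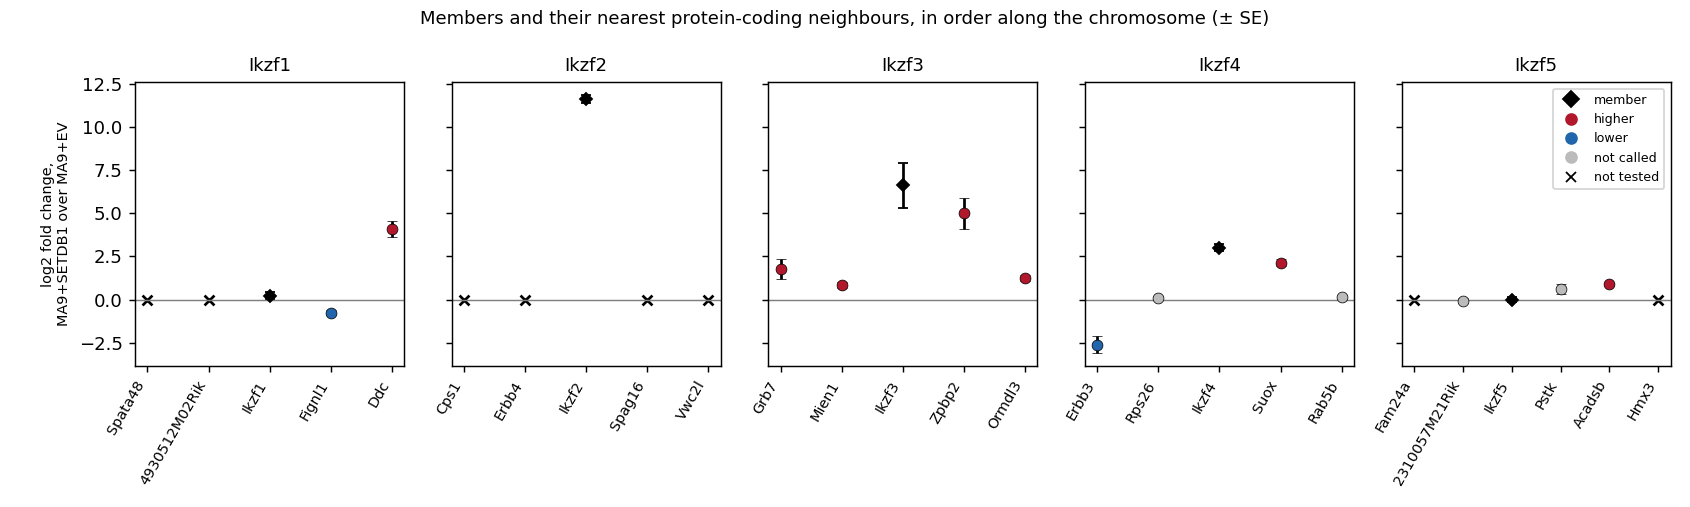
Log2 fold change (± SE), MA9+SETDB1 over MA9+EV, of each member (diamond) and its nearest protein-coding neighbours in chromosomal order, coloured by edgeR call. Crosses at 0 mark genes that did not pass the low-count filter, Hmx3 among them, and are not measured fold changes. No neighbour of Ikzf2 was tested, the 4 neighbours of Ikzf3 are all above 0, and Suox stands beside Ikzf4 at 2.14.

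Among the chromatin complexes that Ikaros proteins recruit, 3 of 14 tested NuRD genes rose and 3 fell, with a median log2 fold change of 0.06, beside -0.01 over all tested genes. Among all tested genes 27.4% were higher and 26.2% lower, so the NuRD counts lay near the background and nothing is read from them. Over the settings tried they ranged from 2 to 6 higher and from 0 to 5 lower. Counts of the lists that follow stand beside the same shares, and all lists were chosen with earlier results of these data known. Mbd2, which encodes the methyl-CpG binding subunit, was at 248 ± 37.8 CPM in MA9+SETDB1 and 94.7 ± 3.82 CPM in MA9+EV (log2 fold change 1.39 with SE 0.14, edgeR adjusted p = 0.000245). The deacetylase gene Hdac2 fell with a log2 fold change of -0.56, and the scaffold gene Gatad2b rose with 0.62 (edgeR adjusted p = 0.00254 and 0.00282), although both calls were lost when replicates 2 and 3 were summed. The other 3 called genes were picked after their values were seen. Chd3, which encodes an alternative remodelling ATPase of the complex, was at 126.2, 65.4 and 68.2 CPM in MA9+SETDB1 replicates 1, 2 and 3, with 2.31, 11.1 and 11.7 CPM in MA9+EV. The arms did not overlap for Chd3 (log2 fold change 3.37 with SE 0.61, edgeR adjusted p = 0.00335). Chd4, its main paralog, was at 416.5 ± 15.5 CPM in MA9+SETDB1 and 471.2 ± 15.5 CPM in MA9+EV and did not pass (edgeR adjusted p = 0.176). Mbd3 and the histone-binding gene Rbbp4 fell, with log2 fold changes of -0.42 and -0.47, and both calls were likewise lost with the summed replicates. The call on Mbd3 was also lost without MA9+SETDB1 replicate 2 and without MA9+SETDB1 replicate 3.

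Of 6 CtBP and SIN3 genes, 1 rose and 1 fell. Ctbp2, which encodes a corepressor of the family that Ikaros and Eos bind, was at 0.447, 0.304 and 0.207 CPM in MA9+SETDB1 replicates 1, 2 and 3, with 98.8, 86.0 and 79.9 CPM in MA9+EV. This was a near-complete separation in the direction opposite to Ikzf2 (log2 fold change -8.09 with SE 0.24, edgeR adjusted p = 2.22e-06). Its paralog Ctbp1 was at 199.4 ± 39.8 CPM in MA9+SETDB1 and 161.9 ± 5.25 CPM in MA9+EV and did not pass (edgeR adjusted p = 0.135, picked after its value was seen). Sin3b, a scaffold of the SIN3 deacetylase complex, rose with a log2 fold change of 1.01 (edgeR adjusted p = 0.00061), and Sap18 was at -0.55 (edgeR adjusted p = 0.0741). The list median was 0.0002. Of 11 tested SWI/SNF remodelling genes, Arid1b fell with a log2 fold change of -1.23 (edgeR adjusted p = 0.000133) and Smarcd1 rose with 0.33 (edgeR adjusted p = 0.0361), and Smarcc1 was at -0.40 (edgeR adjusted p = 0.0515). With the replicate number as a block, 5 SWI/SNF genes were lower, Smarcc1 among them (edgeR adjusted p = 0.0162). With replicates 2 and 3 summed, Smarcc1 did not pass (edgeR adjusted p = 0.244). The list median was -0.14.

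Of 6 genes of the cereblon ubiquitin ligase, which in human cells degrades Ikaros and Aiolos in the presence of thalidomide analogues, 2 rose and 1 fell, with a median of 0.06. Crbn, the substrate receptor gene, was at 43.6 ± 7.07 CPM in MA9+SETDB1 and 27.1 ± 6.2 CPM in MA9+EV (log2 fold change 0.68, edgeR adjusted p = 0.0294, or 0.0569 with the replicate block and 0.0534 without MA9+SETDB1 replicate 1). That call was also lost without MA9+SETDB1 replicate 3, without MA9+EV replicate 3, with replicates 2 and 3 summed and without scaling factors. The small subunit gene Dda1 was at 0.33 (edgeR adjusted p = 0.0497) and the scaffold gene Cul4a at -0.58 (edgeR adjusted p = 0.0116). Of 6 genes for casein kinase 2, which phosphorylates Ikaros, and protein phosphatase 1, which removes the phosphate, 2 rose and 1 fell, with a median of 0.08. The kinase genes Csnk2a1 and Csnk2b rose with log2 fold changes of 0.81 and 0.50, and the phosphatase gene Ppp1cb fell with -1.13 (edgeR adjusted p = 0.0013, 0.0141 and 0.000817). The calls on Dda1, Csnk2b and Smarcd1 were each lost in several settings, and that on Cul4a was lost in 2, the fit without MA9+SETDB1 replicate 2 and the summing of replicates 2 and 3.

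Lymphoid genes known to be controlled by Ikaros or Aiolos were mostly near 0 in both arms. Of 15 B-lineage genes 4 were tested, 1 rose and 2 fell. Igll1, the surrogate light chain gene, had 0 counts in MA9+SETDB1 and was at 0.907, 2.74 and 3.37 CPM in MA9+EV replicates 1, 2 and 3, or 155 counts over the MA9+EV arm. Foxo1 fell to 0.507 ± 0.0799 CPM in MA9+SETDB1, against 5.17 ± 1.94 CPM in MA9+EV, and Il7r, the IL-7 receptor gene, rose to 3.47 ± 1.16 CPM in MA9+SETDB1, against 0.446 ± 0.111 CPM in MA9+EV. The median of the 4 was -1.43. B cell markers were low in both arms, with a summed level of 2.55 to 3.35 CPM in MA9+SETDB1 and 0.912 to 4.04 CPM in MA9+EV, and Pax5 and Ms4a1 at 0 counts in all libraries.

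Of 17 T-lineage and regulatory T cell genes 5 were tested, 2 rose and 2 fell, with a median of 0.82. Tigit, an inhibitory receptor gene, was at 5.81, 18.5 and 15.5 CPM in MA9+SETDB1 replicates 1, 2 and 3 and had 0 counts in MA9+EV. Over the MA9+SETDB1 arm this came to 707 counts. Tnfrsf18, the GITR gene, was at 81.9 ± 26.6 CPM in MA9+SETDB1 and 5.31 ± 2.09 CPM in MA9+EV (edgeR adjusted p = 0.000225), and Tcf7 fell to 0.229 ± 0.118 CPM in MA9+SETDB1, against 1.63 ± 0.605 CPM in MA9+EV. Lck, the other call, fell with a log2 fold change of -0.91 (edgeR adjusted p = 0.0345, picked after its value was seen), a call lost in 5 settings. Of the T cell markers, Cd3e, Cd4 and Cd8a were at 0 counts in all libraries, and Cd3g had 4, 49 and 45 counts in MA9+SETDB1 replicates 1, 2 and 3 and 0 in each MA9+EV library. Foxp3, the defining regulatory T cell gene, had 2 counts or fewer in each library. The summed level of 7 T cell markers was 2.63 to 7.16 CPM in MA9+SETDB1 and 6.48 to 6.75 CPM in MA9+EV.

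Ikaros is known to restrain Notch target genes in thymocytes. Of 14 Notch pathway genes 8 were tested, 3 rose and 1 fell, with a median of 0.29. The receptor gene Notch1 was at 88.2, 45.1 and 39.2 CPM in MA9+SETDB1 replicates 1, 2 and 3. In MA9+EV replicates 1, 2 and 3 it was at 178.3, 93.7 and 93.7 CPM. Its log2 fold change of -1.08 fell just short of passing (edgeR adjusted p = 0.0511, picked after its values were seen). The Notch1 arms did not overlap, as in 64.6% of all tested genes, and replicate 1 was the highest library in each arm. Refits of Notch1 under other settings were not recorded. Over the settings tried, 0 to 2 genes of this list were called lower. Hes1, a Notch target that encodes a repressor, had 359 counts in MA9+SETDB1 and 1 in MA9+EV, a ratio of 457 (exact 95% binomial interval 81.5 to 18100, counting error only). Nrarp, a feedback inhibitor gene, was at 44.2, 20.2 and 20.8 CPM in MA9+SETDB1 replicates 1, 2 and 3, with 0.412, 0.166 and 0.604 CPM in MA9+EV (log2 fold change 6.18 with SE 0.55, edgeR adjusted p = 0.000163). The receptor gene Notch3 was at 6.04, 17.1 and 16.0 CPM in MA9+SETDB1, with 3 counts in all in MA9+EV (edgeR adjusted p = 0.000103). Both Notch3 and Hes1 passed the low-count filter through MA9+SETDB1 alone, and Nrarp could not have passed it without MA9+SETDB1. Rbpj, which encodes the DNA-binding partner of Notch, fell with a log2 fold change of -0.87 (edgeR adjusted p = 0.00402, or 0.0541 with replicates 2 and 3 summed, picked after its value was seen).

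Ikaros is reported to limit basophils through Cebpa. Of 10 mast cell and basophil genes 9 were higher and 1 lower, with a median of 8.23. This list was chosen with earlier results of these data known, so its counts, median and p-values are a description. Fcer1a, Cpa3, Prss34, Mcpt8 and Hdc are in this list and also among the mast cell and basophil markers given above. The list and those marker levels are therefore not separate evidence. Mast cell and erythroid marker levels were higher in MA9+SETDB1, as Ikzf2 was, and their part in the Ikzf2 difference was not tested. Gata2, a transcription factor gene of both lineages, was at 1139, 1451 and 1379 CPM in MA9+SETDB1, with 0.371, 1.08 and 1.41 CPM in MA9+EV. Prss34 and Fcer1a, the basophil protease and IgE receptor genes, had log2 fold changes of 13.55 and 13.38 (edgeR adjusted p = 5.49e-07 and 1.19e-06), and that of Fcer1a was 14.01 without MA9+EV replicate 3. Cebpa was at 322.4 ± 42.5 CPM in MA9+SETDB1 and 194.5 ± 22.2 CPM in MA9+EV (log2 fold change 0.73, edgeR adjusted p = 0.00469, picked after its value was seen). The single lower gene was Kit, the SCF receptor gene, also picked after its values were seen, at 2.46, 0.182 and 0.571 CPM in MA9+SETDB1, with 117.4, 111.9 and 112.5 CPM in MA9+EV. Its log2 fold change was -6.72, or -8.16 without MA9+SETDB1 replicate 1.

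Of the 7 HOXA9 and C/EBP genes, set up from the reported role of Helios in MLL-AF9 leukaemia, 2 rose and 4 fell, with a median of -1.22. Hoxa9 was at 82.5 ± 3.56 CPM in MA9+SETDB1 and 192.4 ± 18.9 CPM in MA9+EV (edgeR adjusted p = 0.000162). Cebpd and Cebpe, factor genes of granulocyte maturation, fell with log2 fold changes of -2.44 and -2.45 (edgeR adjusted p = 0.000246 and 0.00364), and Cebpe was at -1.77 without MA9+EV replicate 1. Cebpa and Cebpb, factor genes active earlier in myeloid cells, rose with 0.73 and 0.74. Meis1 fell with -3.89 (edgeR adjusted p = 0.0185, or 0.0502 without MA9+EV replicate 2 and 0.0909 with replicates 2 and 3 summed). Its log2 fold change was -6.86 without MA9+SETDB1 replicate 1, which alone held most of its MA9+SETDB1 counts. Cebpb and Meis1 were picked after their values were seen. Of the 76 tested genes in the 10 lists together, each counted once, 25 rose and 17 fell. These are 32.9% and 22.4% of the tested list genes, beside 27.4% and 26.2% of all tested genes.

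**Figure D4:**
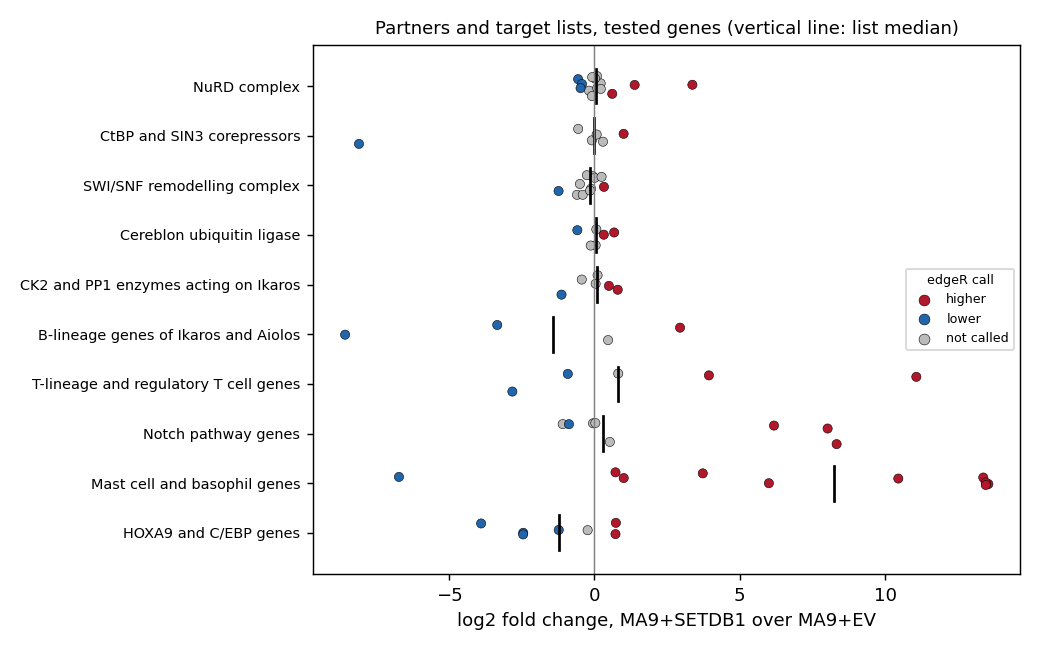
Log2 fold change, MA9+SETDB1 over MA9+EV, of every tested gene in the 10 lists, one point per gene, coloured by edgeR call, with a vertical line at each list median. Among complex subunits Ctbp2 at -8.09 and Chd3 at 3.37 lie farthest from 0, while mast cell and basophil genes lie far to the right with a median of 8.23, and genes with 0 counts in one arm, such as Igll1 and Tigit, sit at fitted values that depend on the prior count.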

How the data were processed

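The authors deposited raw read counts per gene, one file per RNA-seq library, per the labels; the 5 lines that name no gene (24.6% to 26.3% of all counted reads) entered neither library sizes nor tests. Libraries were strand-specific and poly-A selected, per the labels' protocols. The build was GRCm38 and the tools included STAR 2.6.0c and HTSeq 0.11.0, without stated roles, per the submitters' processing notes. The other 20 samples of the series were not used here. Symbols matched 52480 identifiers by version and 1599 without it, and 67 stayed unmatched.

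Counts were filtered with filterByExpr (minimum count 10), scaled with TMM and tested with edgeR 4.0.16 (R 4.3.3, limma 3.58.1) by the quasi-likelihood test with Benjamini-Hochberg adjustment over 12986 genes. Standard errors came from the F statistic. CPM uses TMM-scaled totals, and 3 counts equal 0.124 to 0.182 CPM. Intervals and floors cover counting error only, since reads carry no molecular identifiers. The procedure was tested on simulated data. DESeq2 1.42.0 was an alternative.

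Members, lists and the rule for named genes were chosen with earlier results of these data known. The rule took all members, Setdb1, the 3 tested genes of smallest p per list, called neighbours and the most similar genes. Neighbours are RefSeq (GRCm38.p6) protein-coding genes whose symbol the files hold. Replicate numbers in the titles were checked for pairing over 9039 genes at 10 CPM or more. Deviations from the arm means of same-numbered libraries correlated at 0.331, 0.295 and 0.279, but the values between replicates 2 and 3 across arms were as high (0.329 and 0.273), so the pairing rests on replicate 1. Comparing levels between members per exon length and describing their proteins were planned and not done here.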

Additional observations from a re-analysis of the deposited data

How the results depend on the processing

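As a description only, since the same contrast chose the members, 3 were called higher and 0 lower in all 14 alternatives. With libraries left out in turn, log2 fold changes were 11.46 to 11.73 for Ikzf2, 4.86 to 7.39 for Ikzf3, -0.04 to 0.36 for Ikzf1 and -0.10 to 0.07 for Ikzf5. In alternatives chosen after seeing the data, Ikzf2 was at 11.41 and Ikzf5 at -0.23 without scaling factors, which shifted the median of all genes to -0.24, and Ikzf2 was at 11.83 without replicate 1 of both arms. Without scaling factors the share of higher genes among all calls was 38.1%, against 51.1% with TMM, and 26 list genes were lower, against 17. Genes called over all tested numbered 3553 higher and 3397 lower. They were 2292 and 1928 with replicates 2 and 3 summed (11 list genes lower, fewer libraries) and 5314 and 5285 without replicate 1 of both arms (29 list genes lower), and the cause was not tested. With the replicate number as a block they were 3791 and 3761, and Ikzf2 and Ikzf4 stayed at 11.63 and 3.01. That block ended the call on Crbn, made one on Smarcc1 (not made with replicates 2 and 3 summed) and, in the Notch list, called 2 genes lower. Named genes other than members, Notch1 not included, kept their call and direction in 672 of 742 refits, lost the call in 54 and gained it in 13. The uncalled Rps26 ranged over -0.01985 to 0.1468 with libraries left out, and Rps26 and Rab5b turned to -0.1481 and -0.0811 without scaling factors. Depth limits Ikzf3, which had 51 counts in MA9+SETDB1 replicates 2 and 3. The family shares with plain CPM in place of CPM per kb were not run.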

Other observations

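Limits of 5 counts over MA9+EV and 100 CPM in MA9+SETDB1 were set from the values of Ikzf2 itself, so its own place in the count is no finding. By these limits, 31 of 12986 genes (0.239%), Ikzf2 included, had 5 counts or fewer over MA9+EV and a mean of at least 100 CPM in MA9+SETDB1. The opposite pattern held for 2 genes. The 31 included the transcription factor gene Tal1, mast cell genes such as Cpa3 and Cma1, the T cell receptor gamma gene Tcrg-C1 (152.8, 351 and 378.7 CPM in MA9+SETDB1 replicates 1, 2 and 3, with 3, 2 and 0 counts in MA9+EV replicates 1, 2 and 3), the IL-33 receptor gene Il1rl1, the IL-9 receptor gene Il9r, and red cell genes such as Kel, Rhag and Hbb-bt.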
